A study of Mus musculus with 3 samples.

Results

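The genes described are 10 that encode inflammatory chemokines and cytokines, taken by name from a fixed list: Cxcl2, Cxcl10, Cxcl1, Ccl3, Ccl4, Ccl5, Ltb, Tnf, Il1b and Il6. The list, like the lists of related genes below, was fixed with earlier results of these data known. All 10 genes were found among the 23185 probe sets with a gene name, of 25206 in all. They were read in mouse long-term haematopoietic stem cells on 3 arrays, 1 for each of the doses 0, 0.02 and 2.5 Gy of gamma radiation. The cells were sorted from bone marrow on the absence of lineage markers, Flk2 and CD48 and the presence of ckit, Sca and CD150, were held overnight in Stemspan SFEM medium, and gave RNA 2 hours after exposure, per the labels' protocols. All groups therefore share the sort and the overnight culture. The labels give no strain, age or number of animals. The study asks how these cells respond at once to low doses of radiation. With 1 array per dose there is no replicate spread, no test and no p-value, and every difference below is a difference between single arrays.

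Chemokines are small secreted proteins that draw leukocytes along a gradient by binding receptors coupled to G proteins, and cytokines such as TNF, interleukin 1 beta and interleukin 6 start and spread inflammation. Many of their genes are switched on within hours by the transcription factor NF-κB, and their short-lived mRNAs are cleared by RNA-binding proteins such as the product of Zfp36. Blood stem cells both respond to such signals and can make some of them, and CCL3, also called MIP-1 alpha, is known as an inhibitor of stem cell proliferation.

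Promoter sequences are shown first for the 4 genes that were at least 2-fold higher on the 2.5 Gy array than on the unirradiated array, and for 2 close neighbours in the genome that were not. Each is the 250 bases before the annotated start, 5′ to 3′ on the gene's strand, from RefSeq (GRCm38.p6). Capitals mark matches on either strand to the NF-κB decamer consensus, to the interferon-stimulated response element (ISRE), or to the TATA box TATAAA.
Cxcl2 (chr5:90903649-90903898, plus strand): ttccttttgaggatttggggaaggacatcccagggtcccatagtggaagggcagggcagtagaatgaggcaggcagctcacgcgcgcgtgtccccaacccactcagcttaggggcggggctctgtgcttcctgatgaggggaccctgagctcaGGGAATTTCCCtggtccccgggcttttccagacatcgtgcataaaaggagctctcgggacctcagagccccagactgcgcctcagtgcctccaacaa
Cxcl1 (chr5:90890995-90891244, plus strand): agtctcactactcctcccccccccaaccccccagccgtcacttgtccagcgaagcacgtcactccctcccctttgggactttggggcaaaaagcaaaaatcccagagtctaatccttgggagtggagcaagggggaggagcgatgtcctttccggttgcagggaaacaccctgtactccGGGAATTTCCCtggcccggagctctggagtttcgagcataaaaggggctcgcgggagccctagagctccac
Cxcl2 and its neighbour Cxcl1 are shown together because both carry the same capitals, where overlapping NF-κB matches lie on opposite strands, and because their values differed. The longest stretch they share is 14 bases, which starts with those capitals, at position -97 in Cxcl2 and -71 in Cxcl1 (position -1 is the base before the start). An alignment of the whole 250 bases had 47.2% identical columns.
Cxcl10 (chr5:92348890-92349139, minus strand): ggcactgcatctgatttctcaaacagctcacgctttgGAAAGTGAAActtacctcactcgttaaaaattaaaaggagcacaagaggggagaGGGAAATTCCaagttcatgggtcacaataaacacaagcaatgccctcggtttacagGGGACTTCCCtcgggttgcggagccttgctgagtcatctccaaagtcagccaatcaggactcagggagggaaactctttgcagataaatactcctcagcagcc
The Cxcl10 stretch holds the ISRE match, at -213, upstream of both NF-κB matches, at -159 and -103.
Ltb (chr17:35194257-35194506, plus strand): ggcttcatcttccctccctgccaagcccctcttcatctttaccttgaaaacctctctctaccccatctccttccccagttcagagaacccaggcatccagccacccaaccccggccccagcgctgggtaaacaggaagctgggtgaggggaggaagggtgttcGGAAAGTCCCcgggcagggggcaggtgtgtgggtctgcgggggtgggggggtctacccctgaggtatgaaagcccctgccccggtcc
Tnf (chr17:35202008-35202257, minus strand): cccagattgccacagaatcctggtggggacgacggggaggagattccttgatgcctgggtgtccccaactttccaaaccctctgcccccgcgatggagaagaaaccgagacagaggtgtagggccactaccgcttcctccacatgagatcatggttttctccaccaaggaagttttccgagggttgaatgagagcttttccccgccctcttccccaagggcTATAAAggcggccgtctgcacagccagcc
Ltb and Tnf lie close together on chromosome 17. Ltb has an NF-κB match at -87, and the capitals of Tnf are a TATA box at -29.
Ccl3 (chr11:83649379-83649628, minus strand): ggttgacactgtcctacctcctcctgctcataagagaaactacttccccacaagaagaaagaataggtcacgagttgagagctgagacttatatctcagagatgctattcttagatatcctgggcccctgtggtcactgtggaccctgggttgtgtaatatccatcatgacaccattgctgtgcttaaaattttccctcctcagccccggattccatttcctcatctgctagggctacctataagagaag
Ccl3 has no capitals: none of these motifs was found in its window, which says only that these letters are not there.

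Of the 8 genes with a promoter in the RefSeq table (300 bases, of which 50 follow the start), 5 held an NF-κB match, namely Cxcl2, Cxcl10, Cxcl1, Ltb and Il6. Over all 32851 promoters given there, the share with one was 4.51%. The AP-1 motif TGANTCA was found in Cxcl10 and Il6 and in 7.81% of all promoters, the ISRE in Cxcl10 and in 3.44%, the TATA box in Tnf and Il1b and in 13.6%. A p53 site of paired decamers without a spacer was found in none of the 8 and in 0.00913% of all promoters. A match is a run of letters and not a measured binding site. Among these genes a match did not go with one pattern of values. Cxcl2, Cxcl10 and Ltb had an NF-κB match and were at least 2-fold higher at 2.5 Gy, Cxcl1 and Il6 had one and were not, and Ccl3 had none and was.

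**Figure D1:**
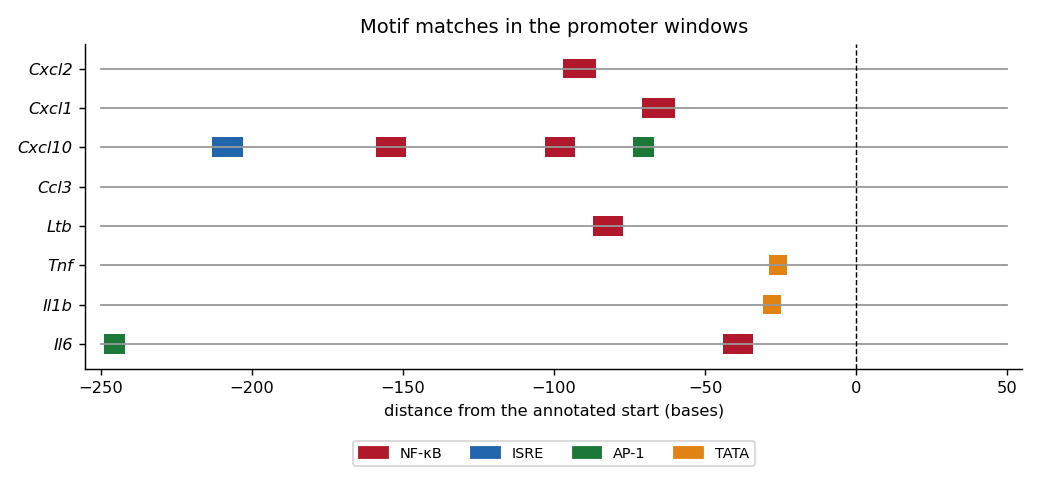
Motif matches (coloured bars) in the promoter windows of 8 genes, by distance from the annotated start in bases. NF-κB matches are seen in Cxcl2, Cxcl1, Cxcl10, Ltb and Il6, and Ccl3 has no match.

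At 2.5 Gy, 4 of the 10 genes were at least 2-fold higher than on the unirradiated array: Cxcl2, Cxcl10, Ltb and Ccl3. None was at least 2-fold lower. Over all named genes the share at least 2-fold higher was 0.94% and the share lower 0.638%. The 10 genes were chosen with earlier results of these data known, so their count against these shares is no support. To limit the weight of weak signals, a level minimum was set at a mean over the 3 arrays of 4.55 (log2), the median of the named genes. Past it were 7 of the 10 genes, with Cxcl1, Il1b and Il6 below, and 11593 genes in all, with shares of 1.15% higher and 0.578% lower at 2-fold. The median log2 difference of all 10 genes was 0.29, against -0.02 over all named genes; for the 7 past the minimum it was 1.05, against 0.02 over all genes past it. The minimum uses the same arrays as the difference, so the higher median of the 7 is no support. Signal over background is not known here.

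Cxcl2 encodes a chemokine that draws neutrophils through CXCR2. It read 6.02 on the unirradiated array, 5.36 at 0.02 Gy and 7.78 at 2.5 Gy (deposited log2 values, as for every level below). The 2.5 Gy array was the high one, 1.76 above unirradiated, a 3.38-fold difference, while the 0.02 Gy array was the lowest, at -0.66. The doses thus lay on opposite sides of the unirradiated array, and 2.5 Gy was 2.42 above 0.02 Gy, a 5.34-fold difference. Of the 11593 genes past the level minimum, 13 had a difference between the doses at least that large in this direction, Cxcl2 included, and 21 a difference from unirradiated at least as large as its 1.76.

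Cxcl1, which lies next to Cxcl2 and encodes a chemokine of the same receptor, read 3.85, 3.79 and 3.71 at 0, 0.02 and 2.5 Gy. All 3 values lay below the level minimum and within 0.14 of each other. The related genes Cxcl15 and Cxcl3 on the other side of Cxcl1 were below it too, with differences of 0.14 and -0.22 at 2.5 Gy from unirradiated, and Mthfd2l, a folate enzyme gene beyond Cxcl2, had 0.20. In this row of genes Cxcl2 was therefore the one with a difference of 2-fold or more.

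Cxcl10 encodes a chemokine that interferons induce and that draws T cells through CXCR3. It read 4.42, 5.24 and 5.88 at 0, 0.02 and 2.5 Gy, so that both irradiated arrays were above the unirradiated one, by 0.82 (0.02 Gy) and 1.46 (2.5 Gy). The unirradiated value was below the level minimum, and the gene passed it through the irradiated arrays. Its neighbours Cxcl9 and Cxcl11, annotated in this genome as a pseudogene, were below the minimum, with 0.45 and 0.41 at 2.5 Gy from unirradiated. Art3, an ADP-ribosyltransferase gene whose annotation overlaps Cxcl10, went the other way, at 4.96, 4.88 and 4.26, a difference of -0.70 at 2.5 Gy.

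Ccl3 read 6.34, 6.76 and 7.40 at 0, 0.02 and 2.5 Gy. Both irradiated arrays were above the unirradiated one, by 0.42 (0.02 Gy) and 1.05 (2.5 Gy). The difference at 2.5 Gy, 2.08-fold, lay just past 2-fold. It was 0.92 after quantile normalization and 0.92 after loess, so the 2-fold count of the 2.5 Gy array was 3 under either scaling. Ccl4, the neighbouring gene, which encodes the related chemokine MIP-1 beta, read 7.45, 7.12 and 7.81. Its 2.5 Gy array was highest but by 0.36 only, and its 0.02 Gy array was lowest, at -0.33. The annotations of Ccl3 and Ccl4 overlap, and which probes read each was not given in the sources used here. Ccl5, whose product draws T cells and monocytes, read 8.39, 8.76 and 8.62. Its differences from unirradiated were 0.36 (0.02 Gy) and 0.22 (2.5 Gy), and the second was -0.03 after quantile normalization, so it has no settled sign. Ccl9, the nearest measured chemokine gene to Ccl5, was at -0.05 (0.02 Gy) and -0.00 (2.5 Gy). Heatr9, on the other side and below the minimum, read 4.27, 3.34 and 3.96, a difference of -0.93 at 0.02 Gy.

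Ltb encodes lymphotoxin beta, a membrane protein of the TNF family that joins lymphotoxin alpha to signal through the receptor LTBR. It read 6.11, 6.39 and 7.43 at 0, 0.02 and 2.5 Gy. The 2.5 Gy array stood above both others, by 1.32 over unirradiated, a 2.50-fold difference, and by 1.04 over 0.02 Gy, while 0.02 Gy was 0.28 above unirradiated. Tnf and Lta, which lie beside it in the genome and encode TNF and lymphotoxin alpha, did not share this size of difference. Tnf read 5.46, 5.33 and 5.56, a difference of 0.10 at 2.5 Gy, and Lta 4.66, 4.30 and 4.73, a difference of 0.07. Lst1, on the other side of Ltb, read 8.88, 9.30 and 9.20, with 0.32 at 2.5 Gy.

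Il1b and Il6, the genes of the interleukins that act through IL1R1 and through IL6RA with IL6ST, gave no value above the others at 2.5 Gy. Il1b read 4.70, 4.25 and 4.18 at 0, 0.02 and 2.5 Gy, with only its unirradiated value above the level minimum, and differences of -0.45 (0.02 Gy) and -0.52 (2.5 Gy). Il6 read 2.65, 2.84 and 2.61, all below the minimum. Noncoding genes whose annotation overlaps them, Il1bos and A230098N10Rik, differed by 0.03 and 0.04 at 2.5 Gy. The pseudogene Spcs2-ps near Il1b was at 0.67 (0.02 Gy) and 0.26 (2.5 Gy). Beside Il6, Tyms, the thymidylate synthase gene, was at 0.26 (0.02 Gy) and 0.15 (2.5 Gy), and the pseudogene Gm4961, below the minimum, at 0.08 (0.02 Gy) and 0.30 (2.5 Gy). Low array signal of this kind does not show that a gene is silent.

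**Figure D2:**
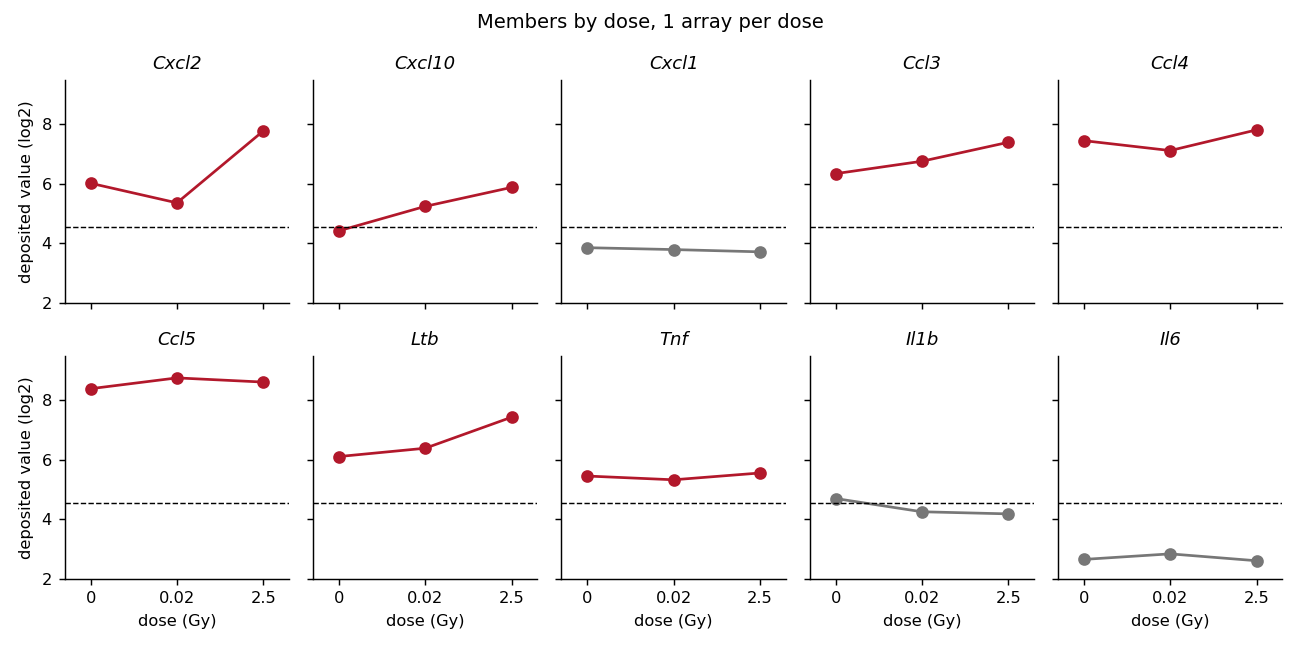
Deposited log2 value (vertical axis) of each of the 10 genes by dose in Gy (horizontal axis, evenly spaced), 1 array per point, with the level minimum of 4.55 dashed and genes below it on average in grey. Cxcl2, Cxcl10, Ccl3 and Ltb have their highest point at 2.5 Gy and at least 2-fold above 0 Gy, while Cxcl1, Il1b and Il6 stay low.

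**Figure D3:**
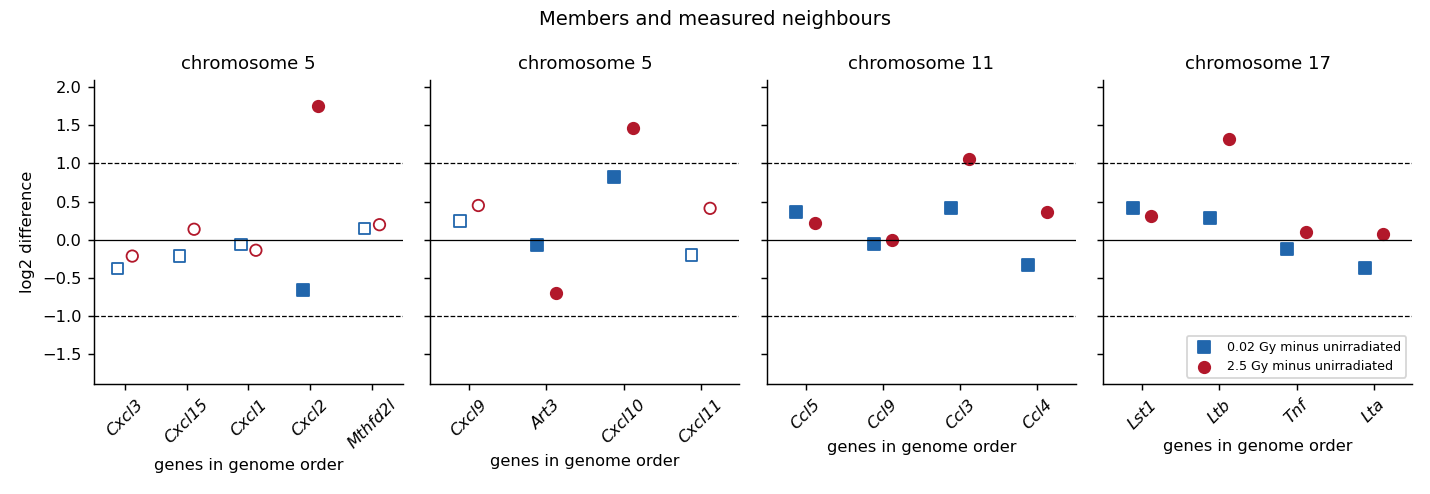
Log2 difference from the unirradiated array at 0.02 Gy (squares) and 2.5 Gy (circles) for the members except Il1b and Il6, in genome order. Some of their measured neighbours are shown with them, and others, such as Heatr9, are not. Open symbols are genes below the level minimum and dashed lines mark 2-fold. Cxcl2, Cxcl10, Ccl3 and Ltb pass 2-fold at 2.5 Gy, with Cxcl1, Ccl4 and Tnf beside them at -0.14, 0.36 and 0.10.

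At 0.02 Gy, none of the 10 genes was 2-fold higher or lower than on the unirradiated array, where the shares higher and lower were 1.33% and 1.14% of genes past the level minimum and 1.12% and 1.17% of all named genes. At so low a background share, a count of 0 among 10 genes shows little. Cxcl10 had the highest difference, 0.82, and Cxcl2 the lowest, -0.66. The 7 genes past the minimum had a median of 0.28, against 0.04 over all genes past it, with 4 above 0 and 3 below. All 10 had a median of 0.06, with 5 on each side. Of all genes, 54.2% past the minimum and 47.4% without it were above 0, so these sign counts show little. The median of 0.28 was 0.086 after quantile normalization, 0.11 after loess and 0.077 for the 6 genes past the minimum on both arrays. Both dose comparisons share the unirradiated array, so values at the 2 doses are not independent of each other.

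The doses can also be set against each other without the unirradiated array. Cxcl2 (2.42) and Ltb (1.04) were at least 2-fold higher at 2.5 Gy than at 0.02 Gy, 2 of the 10 genes, and none was lower, against 1.44% and 1.06% of genes past the level minimum and 1.22% and 0.996% of all named genes. Ccl4 was 0.70 higher, Ccl3 0.64 and Cxcl10 0.64. Tnf was at 0.23, Ccl5 at -0.14 and Il6 at -0.23. The median was 0.64 for the 7 past the minimum and 0.43 for all 10, against -0.00 over all genes past it.

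**Figure D4:**
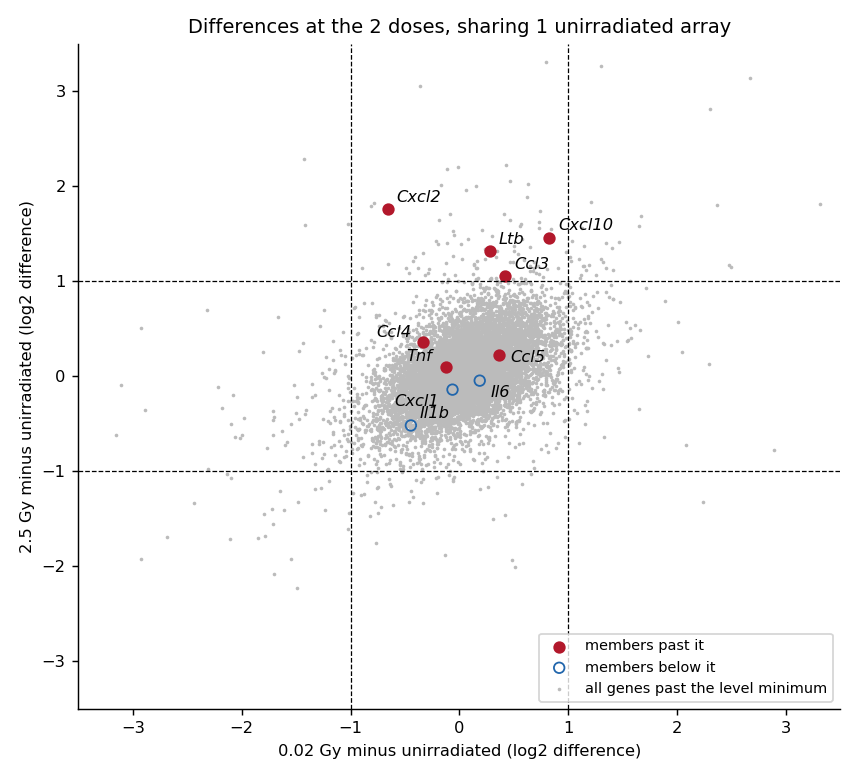
Log2 difference from unirradiated at 0.02 Gy (horizontal axis) and 2.5 Gy (vertical axis), 1 array each, for the 10 genes (coloured) and all 11593 genes past the level minimum (grey); dashed lines mark 2-fold. Cxcl2 lies at -0.66 (0.02 Gy) and 1.76 (2.5 Gy), left of centre and above 2-fold, and Cxcl10 at 0.82 (0.02 Gy) and 1.46 (2.5 Gy).

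Genes with a like pattern were sought by the distance between pairs of differences from unirradiated, over 3 arrays and among 9922 genes past the level minimum; 1670 predicted genes and genes of some multigene families, set aside by patterns in their names, were not searched. The nearest to Cxcl2 was Mettl7a3 (distance 0.15), which those patterns did not cover although it too belongs to a multigene family whose copies may share probes. After it came Nfkbie (0.55), Nfkbib (0.56) and B4galt5 (0.56). Nearest to Cxcl10 were Btg2 (0.09), Ivns1abp (0.14) and Snhg15 (0.20). Nearest to Ltb were Etf1 (0.07), Clic1 (0.08) and Rela (0.15).

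Of the genes listed as receptors of these ligands, 15 were measured and 11 were past the level minimum. None was 2-fold higher or lower in any comparison, and the median at 2.5 Gy from unirradiated was -0.24 for the 11. Over all genes past the minimum the shares 2-fold higher or lower ran from 0.578% to 1.44% over the comparisons, so a count of 0 shows little. Cxcr1 (5.44, 4.90 and 4.64 at 0, 0.02 and 2.5 Gy) and Cxcr2 (5.14, 5.10 and 4.88) were lowest at 2.5 Gy, and Cxcr2 encodes the receptor named above for CXCL1 and CXCL2. So was Cxcr3 (4.79, 4.55 and 4.47), the receptor of CXCL10. Ackr2, a scavenger of CC chemokines, read 5.20, 4.87 and 4.55, a difference of -0.65. Ccr1, Ccr3, Ackr1 and the decoy receptor gene Il1r2 were below the minimum, with differences between -0.07 and 0.17 at 2.5 Gy.

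Receptors of the TNF and interleukin ligands gave differences of both signs. Ltbr, the receptor of lymphotoxin beta, read 6.89, 6.39 and 7.02, and was lowest at 0.02 Gy. Tnfrsf1a read 5.57, 5.76 and 5.33 and Tnfrsf1b 6.31, 6.49 and 6.72, so the TNF receptors differed in sign at 2.5 Gy (-0.24 and 0.41). Il1r1 (-0.37), Il1rap (0.14) and Il6ra (0.13) were within 1.5-fold of unirradiated at 2.5 Gy. Il6st, which encodes the signalling subunit gp130 of the interleukin 6 receptor, read 5.02, 6.01 and 5.91. Both irradiated arrays were higher, by 0.99 (0.02 Gy) and 0.89 (2.5 Gy), the highest differences among these receptors; after median centring the first was 1.05, past 2-fold.

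Other secreted ligands were read from lists of related genes. Of 29 other chemokine genes, 13 were past the level minimum and none was 2-fold higher or lower at either dose. Over all genes past it 1.15% were higher and 0.578% lower at 2.5 Gy, and 1.33% and 1.14% at 0.02 Gy. A count of 0 in this list, or in the cytokine and TNF family lists below, therefore shows little. The median of the 13 at 2.5 Gy from unirradiated was 0.01. Pf4, the platelet chemokine gene, was at 0.47, Cxcl16 at 0.24, Ccl7 at 0.20 and Ppbp, another platelet chemokine gene, at -0.69. At 0.02 Gy the largest differences past the minimum were those of Ccl11 (-0.55) and Ccl22 (-0.42); below it Ccl17 was at -0.60. Of 37 other cytokine genes, 15 were past the minimum, none 2-fold higher or lower, with a median of -0.09 at 2.5 Gy. Below the minimum, Il5 was at 3.04 at 2.5 Gy, against 4.05 unirradiated, the 1 gene of the 37 past 2-fold. Over all named genes 0.638% were 2-fold lower at 2.5 Gy, and Il5 is named after its value was seen. Ebi3, a subunit gene of heterodimeric cytokines, was at 0.51, Tgfb1 at 0.39, Clcf1 at -0.46 and Il12b at -0.47. At 0.02 Gy, Il18 was 0.78 and Il12a 0.47 higher. Of 15 TNF family ligand genes measured besides Tnf and Ltb, 4 were past the minimum, none 2-fold different. They were Tnfsf4 at 0.54, Tnfsf15 at -0.19, Tnfsf9 at 0.08 and Lta, given above, at 0.07. Lta is also counted among the 37 other cytokine genes.

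Genes that act on these ligands after transcription or translation were read next. Of 9 processing and release genes past the minimum none was 2-fold different at 2.5 Gy, with a median of 0.19. Of all genes past it, 1.15% were higher and 0.578% lower, so this count of 0 shows little. Casp4, an inflammatory caspase gene, was highest at 0.89, followed by the pore-forming Gsdmd (0.50) and the DNA sensor Aim2 (0.39), and the adaptor Pycard was at -0.48. At 0.02 Gy, Adam10 (0.51) and Casp1 (0.49), whose product cleaves interleukin 1 beta, had the largest differences past the minimum. Of 14 genes of cytokine mRNA decay and stability past the minimum, 1 was 2-fold higher at 2.5 Gy and none lower (1.15% and 0.578% of all genes past it), with a median of 0.33. It was Zfp36, which read 7.28, 7.34 and 9.24 at 0, 0.02 and 2.5 Gy, so that the 2.5 Gy array stood 1.96 above unirradiated and 1.90 above 0.02 Gy. Zfp36l2 (0.79), Mapkapk2 (0.73), a kinase gene whose product acts on the Zfp36 protein, and Tia1 (0.51) followed. At 0.02 Gy, Rc3h2 (0.69) and Zfp36l2 (0.60) were highest.

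Transcription factor genes known to act on cytokine promoters held 3 members at least 2-fold higher at 2.5 Gy among 17 past the minimum, with a median of 0.37, and 4 of 21 without the minimum. The shares over all genes were 1.15% past the minimum and 0.94% without it. The 3 were the NF-κB subunit genes Rela (1.47) and Nfkb2 (1.26) and the AP-1 gene Junb (1.28), and the subunit gene Rel was at 0.78. At 0.02 Gy none was 2-fold different, with Irf3 at 0.59 and Rel at 0.55. Among NF-κB feedback inhibitor genes, 5 of 7 past the minimum were at least 2-fold higher at 2.5 Gy and none lower (1.15% and 0.578% of all genes past it), led by Nfkbie (2.01), Nfkbib (1.42), Nfkbia (1.39) and Tnfaip3 (1.09). At 0.02 Gy none of them was 2-fold different, with Tnfaip3 at -0.29 and Cyld at 0.23. Over all genes past the minimum 1.33% were 2-fold higher and 1.14% lower at that dose, so the counts of 0 in these lists show little. The transcription factor and feedback inhibitor lists, too, were chosen with earlier results of these data known.

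**Figure D5:**
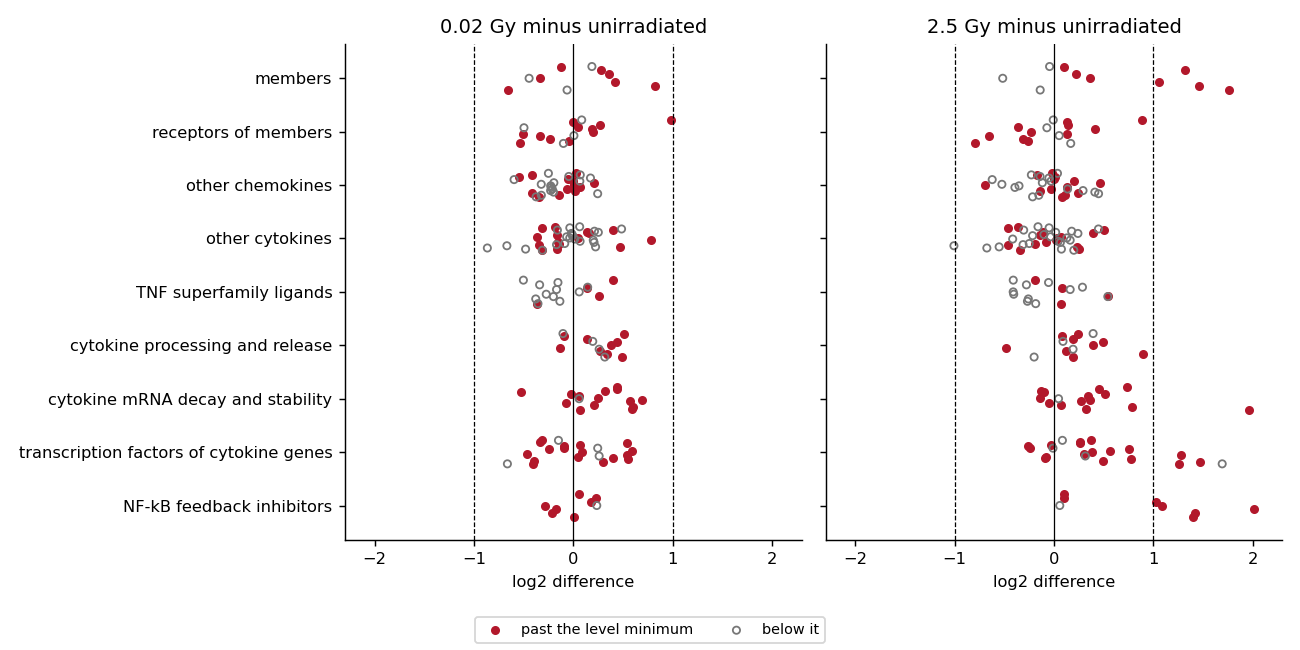
Log2 difference from the unirradiated array at 0.02 Gy (left) and 2.5 Gy (right) for each gene of 9 lists, filled if past the level minimum and open if below; the vertical spread within a list has no meaning and dashed lines mark 2-fold. At 2.5 Gy genes 2-fold higher are seen among the members, the decay, transcription factor and feedback inhibitor lists, Il5 (below the minimum, -1.01) is 2-fold lower among the other cytokines, and no receptor passes 2-fold.

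The arrays were read for the sort and for other cells that make these ligands. Of 13 stem cell markers, 12 were matched and all of these were past the level minimum, with Kit at 8.58, 8.78 and 8.50 and Slamf1, which encodes CD150, at 5.24, 4.75 and 4.84 (0, 0.02 and 2.5 Gy). Of 10 markers listed as selected against in the sort, 9 were matched and 3 were past the minimum. These were Flt3, which encodes Flk2, at 4.60, 4.95 and 4.93, Itgam at 4.72, 5.15 and 4.73, and Ptprc at 7.04, 7.41 and 7.58. Cd48 was below the minimum at 3.62, 3.31 and 3.40. Ly6g was below it on average, although its unirradiated value was 5.06. Among 13 neutrophil markers, 2 were at least 2-fold higher at both doses: S100a8 (1.30 at 0.02 Gy, 1.24 at 2.5 Gy) and S100a9 (1.12 at 0.02 Gy, 1.56 at 2.5 Gy). The shares of all genes past the minimum that were 2-fold higher are 1.33% and 1.15% at these doses. Of the 13, 7 were below unirradiated at 2.5 Gy, among them Ngp (-0.93), Camp (-0.29) and Mmp9 (-0.26), which were all below the level minimum. The median of the 13 was -0.04 at 2.5 Gy and 0.16 at 0.02 Gy, where 9 were above 0 and 4 below. For the 6 past the minimum it was 0.41 at 2.5 Gy and 0.55 at 0.02 Gy, with 4 and 5 of them above 0. Mpo was at 0.70 at 2.5 Gy and Elane at 0.94 at 0.02 Gy, both past the minimum. The other 7 markers were below it. The 13 summed to 418, 636 and 711 on the linear scale (0, 0.02 and 2.5 Gy), and the 11 without S100a8 and S100a9 to 258, 273 and 267. The 16 macrophage and monocyte markers measured summed to 467, 440 and 463. Ly6c2 was at least 2-fold higher at 2.5 Gy (1.04), as were 1.15% of all genes past the minimum, and Cx3cr1, the highest, was at -0.19. Ms4a7, below the minimum, was 1.13 higher at 0.02 Gy, where 1.12% of all named genes were 2-fold higher, and at -0.08 at 2.5 Gy. T and NK cell markers summed to 449, 379 and 378, with Klrb1c, the highest, at -0.20 at 2.5 Gy. Mast cell and basophil markers summed to 154, 243 and 154. Mcpt8, the highest of the 8 measured, was 1.46 higher at 0.02 Gy, where the median of the 8 was 0.13. B cell markers summed to 162, 145 and 155, with Pax5, the highest, at -0.04 at 2.5 Gy. Dendritic cell markers summed to 426, 408 and 420, with Bst2, the highest, at 0.11 at 2.5 Gy. Endothelial and stromal markers summed to 316, 362 and 326. Pecam1, the highest of these 10, was 0.88 higher at 0.02 Gy, where the median of the 10 was -0.07. Fewer cells of a type and less RNA per cell cannot be told apart in bulk RNA, and the part of other cells in the values of the 10 genes was not tested.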

How the data were processed

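The authors deposited 1 log2 value per probe set and array. Partek is named without role or version per the submitters' processing notes, and the background correction, normalization and summarisation steps are unstated there. That the scale is log2 was inferred from their range, 1.55 to 12.4, with array medians of 4.60, 4.54 and 4.55 (0, 0.02 and 2.5 Gy). The biotin-labelled target came from an Affymetrix whole-transcript kit, per the labels' protocols.

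Probe sets were named by the platform annotation, with symbols updated by Entrez identifier through RefSeq (GRCm38.p6). A symbol was found for 23185, of which 0 shared it with another probe set. The 2021 unnamed ones were left out. Differences were taken between arrays gene by gene in 3 comparisons and counted at 2-fold, a log2 difference of 1, among the 11593 genes whose mean reached the level minimum. With 1 array per dose no test was run, and the number of arrays limits the precision. Counting, scaling and motif search were tested on simulated data (Python 3.11.15, numpy 2.4.6, pandas 2.3.3, statsmodels 0.14.6). Of 264 listed symbols, 256 were matched. The members and lists were chosen with earlier results of these data known.

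Genes named are the members, their receptors, the 4 genes of each other list with the largest difference at 2.5 Gy and the 2 at 0.02 Gy past the minimum, 3 genes nearest in pattern to each of the 3 leading members outside predicted genes and families of copies as far as name patterns found them (Mettl7a3 was not found so, and the next gene is also given for Cxcl2), measured genome neighbours (2 on either side), sort markers and the highest marker of each cell type; for marker lists, those bearing on the members are given. Alternatives were no level minimum, one at the 75th percentile or on both arrays, quantile normalization, median centring, loess (span 0.3), and fold sizes of 1.5 and 3.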

Additional observations from a re-analysis of the deposited data

Results flagged for a closer look

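Among the 10 genes, 4 differed from the unirradiated array in opposite directions at the 2 doses. The share of all genes that did so was not computed, so the count of 4 marks no trait of these genes. Cxcl2 was at -0.66 at 0.02 Gy and 1.76 at 2.5 Gy. Ccl4 was at -0.33 at 0.02 Gy and 0.36 at 2.5 Gy, and Tnf at -0.13 at 0.02 Gy and 0.10 at 2.5 Gy. Il6, below the level minimum on every array, was at 0.19 at 0.02 Gy and -0.045 at 2.5 Gy, and the second value was 0.0031 after median centring. The difference between doses was not tested, since each has 1 array and both share the unirradiated one. For Tnf and Il6 the values are small beside the robust SD over genes of similar level (0.26 to 0.32 across both genes and comparisons), which is not replicate noise. The Cxcl2 values kept their signs at 0.02 Gy and 2.5 Gy after quantile normalization (-0.72 and 1.66), median centring (-0.59 and 1.81) and loess (-0.80 and 1.66).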

How the results depend on the processing

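No paired analysis was possible because a single array stands for each dose, which leaves no test to block. The count of members at least 2-fold higher at 2.5 Gy than unirradiated was 4 as deposited, without a level minimum and after median centring, and 3 under the other settings of level and scaling: Ccl3 was not counted after quantile normalization and loess, and Cxcl10 was not past a minimum at the 75th percentile or on both arrays. At 3-fold it was 1 (Cxcl2, where 0.276% of all genes were higher). The median of members in that comparison was 1.05, against 0.29 without a minimum and 0.71 with the minimum on both arrays, where other genes enter or leave the count. At 2.5 Gy against 0.02 Gy the count was 2, against 5 at 1.5-fold (5.74% of all genes) and 1 at 3-fold (0.388%); at 0.02 Gy it was 0 higher and 0 lower, against 1 and 1 at 1.5-fold (Cxcl10 higher, Cxcl2 lower, against 7.5% and 4.72% of all genes). Of 30 values of the members, the largest shift was 0.28 after quantile normalization, 0.24 after loess and 0.07 after median centring, all under the robust SD over genes of similar level. Signal over background is not known here, which limits what the low values of Cxcl1, Il1b and Il6 can show.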

Other observations

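Without a level minimum, the gene closest to Cxcl2 in its pair of differences was Jun, an AP-1 subunit gene that was below the minimum and was chosen after its value was seen. Jun read 4.05, 3.39 and 5.75 at 0, 0.02 and 2.5 Gy, at a distance of 0.07 from Cxcl2 among 17649 genes. Cd69, an early activation marker of lymphocytes, was at a distance of 0.39 and read 3.99, 3.63 and 6.01. For Ltb the 3 nearest genes were Etf1, Clic1 and Rela with or without the minimum, and for Cxcl10 the nearest without it was Rsl1 (0.03), at 2.85, 3.65 and 4.32.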
